A study of Sus scrofa with 12 samples.

Results

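The rows of mature miRNAs named miR-144, miR-451 or miR-486 in pig testis were taken by name from the deposited table, in which they are 10 of 1452 rows. They comprise 3 rows under pig names (ssc-miR-144, ssc-miR-451 and ssc-miR-486) and 7 rows under names without a species, which carry the suffix x, y or z. The libraries came from whole testis, collected by castration, of boars of 2 breeds, the Hezuo pig (HZ) and the Landrace pig (LC). Group Ha was HZ at 30 days, Hb was HZ at 120 days, La was LC at 30 days and Lb was LC at 120 days, with 3 libraries each, no agent and no genetic change in any group. The study used 3 boars of each breed at each age. Its methods say that samples were pooled before RNA extraction and not how many boars a library holds, so every p-value below measures the spread between libraries.

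Listed miRNAs took 6520197 to 16874633 counts in a library, and the 10 rows held 0.0994 to 0.276% of them. The markers of testis cells were present, unevenly in Hb. The 5 rows of miR-202, a miRNA of gonadal somatic cells, summed to 9608 to 24405 TPM in every library. The germ cell list reached 1 row, ssc-miR-34c, a miRNA of meiotic and haploid germ cells, because the table holds no row named miR-34b, miR-449a, miR-449b or miR-449c. The list fixed these letters, so rows of the miR-34 and miR-449 families under other names were not read. ssc-miR-34c lay between 12.5 and 62.0 TPM at 30 days and between 9330 and 11634 TPM in Lb. In Hb it stood at 1218 TPM in replicate 1, 1732 TPM in replicate 2 and 11014 TPM in replicate 3, so the Hb libraries differ widely from each other in this marker.

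These miRNAs are known as miRNAs of the red cell line. miR-144 and miR-451 are cut from 1 primary transcript that the factor GATA1 switches on during erythroid maturation. The hairpin of miR-451 is too short for Dicer and is cut by AGO2, which leaves almost no product of its other arm, whereas miR-144 and miR-486 pass through Dicer. miR-486 lies within ANK1, the gene of the red cell ankyrin, and is also made in cardiac and skeletal muscle from a promoter used there. Mature red cells keep much of these miRNAs, so in a solid tissue they are widely read as a sign of the blood it holds.

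In the RefSeq annotation of Sscrofa11.1, MIR451 spans 65 bases at chr12:45088808-45088872 and MIR144 spans 76 bases at chr12:45088958-45089033. The hairpins are 85 bases apart and both lie within the bounds of ERAL1. MIR486-1 spans 80 bases at chr17:10758855-10758934, within the bounds of ANK1. The annotation used here gives the bounds of these genes but neither their exons nor the strand.

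The sequences are shown as deposited, 5′ to 3′ and with T for U, because the rows differ in length and in arm, and several results below depend on which row was counted. Capitals mark the seed, bases 2 to 8, which pairs with target mRNAs. The guide sequences come with their longer rows.
ssc-miR-144: tACAGTATagatgatgtac
miR-144-y: tACAGTATagatgatgtactct
ssc-miR-451: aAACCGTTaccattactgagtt
miR-451-x: aAACCGTTaccattactgagtttag
ssc-miR-486: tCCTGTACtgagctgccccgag
miR-486-x: tCCTGTACtgagctgccccgagtt
miR-486-z: tCCTGTACtgagctgccccgagttt
The rows from the other arm of each hairpin have seeds of their own.
miR-144-x: gGATATCAtcatatactgtaagt
miR-451-y: tTTAGTAAtggtaacggttct
miR-486-y: cGGGGCAGctcagtacaggat

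miR-144-y is ssc-miR-144 with 3 more bases at the 3′ end, miR-451-x is ssc-miR-451 with 3 more, and miR-486-x and miR-486-z are ssc-miR-486 with 2 and 3 more. The seeds are therefore shared within each of these sets, and the 10 rows have 6 seeds in all. No other row of the 1452 carries any of the 6 seeds, and no row outside the 10 lies within 3 edits of one of them. A tag could thus be split between the rows of a set by its 3′ end, but the deposited names give no other miRNA that would share it.

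ssc-miR-144 had the highest mean of the 10 over the 12 libraries, 777 TPM (the deposited unit, which scales the tags of each library to a common total and does not divide by length), rank 86 of the 1452 rows. ssc-miR-451 had a mean of 640.2 TPM at rank 101, and ssc-miR-486 had 125.98 TPM at rank 190. At 120 days ssc-miR-451 had the larger group mean, 632 beside 618 TPM of ssc-miR-144 in Hb and 567 beside 453 TPM in Lb. Of the other rows, miR-451-x (45.1 TPM), miR-144-x (21.0 TPM), miR-486-x (9.19 TPM) and miR-486-y (1.54 TPM, 0.785 to 2.54 TPM by library) were counted in every library. miR-144-y (0.573 TPM) and miR-486-z (0.433 TPM) were also counted in all 12, at 28 counts or fewer, and miR-451-y (0.200 TPM) in 8 of 12, at 8 counts or fewer. Those 3 rows stood near the floor of 3 counts, which is 0.158 to 0.404 TPM depending on the library. The protocol names no molecular identifiers, so copies of 1 molecule cannot be told apart and the floor is one of counting alone.

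The other arm was rare in the miR-451 hairpin. Its row, miR-451-y, held 28 of 92884 counts on the hairpin (0.0302%), and no library went above 0.0549%. For miR-486 the other arm held 205 of 18210 counts (1.13%, 0.629 to 2.22% by library) and for miR-144 it held 2868 of 108621 counts (2.64%, 1.60 to 3.46%). On paper, the best alignment of the arms without a gap held 17 paired bases for miR-451, 20 for miR-486 and 10 for miR-144, mismatches between them allowed. Alignments with a gap or bulge were not tried, so these numbers do not measure how well the arms pair. The longer rows took 6412 of 92856 counts of the miR-451 guide arm (6.91%) and 1276 of 18005 of the miR-486 guide arm (7.09%), against 84 of 105753 for miR-144 (0.0794%).

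**Figure D1:**
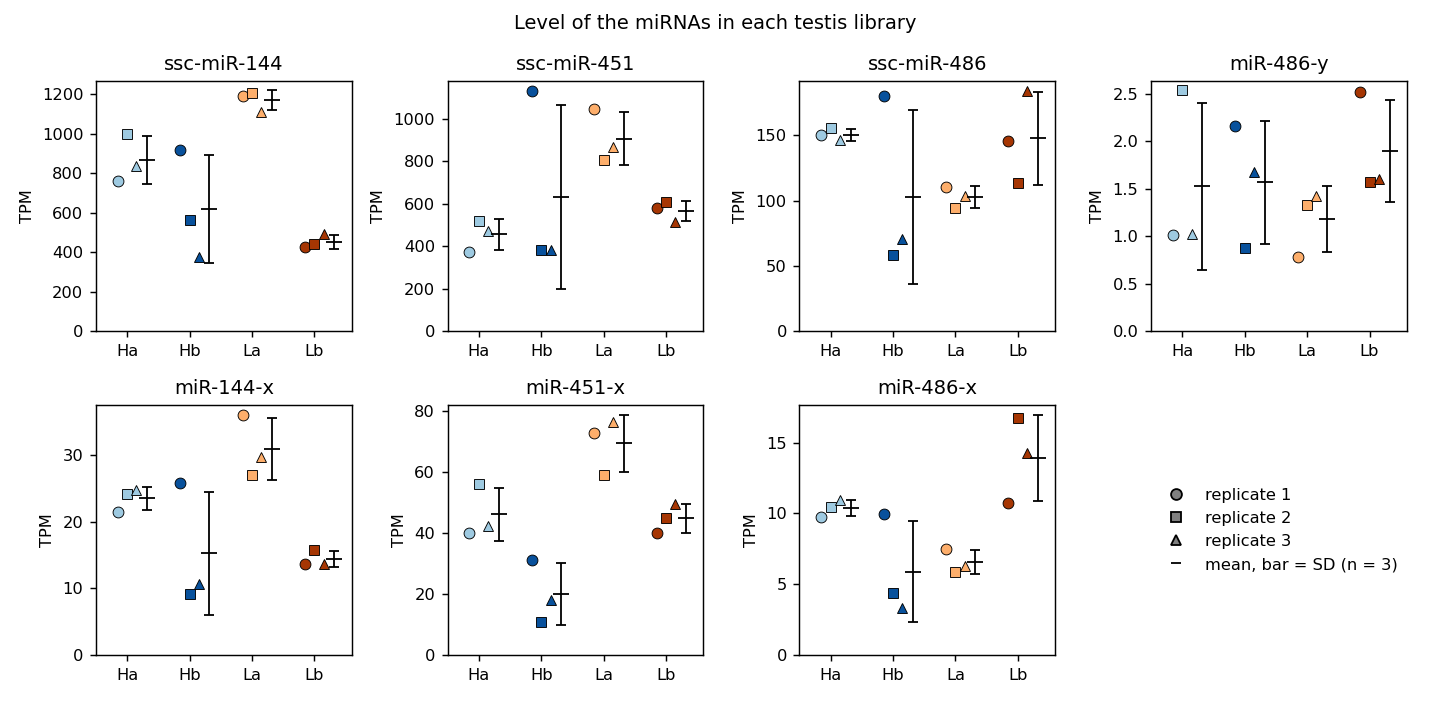
Expression in deposited TPM of the 7 rows with a mean above 1 TPM, 1 panel per row, with 1 point per library (marker shape by replicate number) and the group mean with its SD (n = 3). Hb replicate 1 lies above the other Hb libraries in ssc-miR-144, ssc-miR-451 and ssc-miR-486, and the La libraries hold the highest 3 values of ssc-miR-144.

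The levels of ssc-miR-144 were 759, 998 and 839 TPM in Ha, 917, 561 and 376 in Hb, 1192, 1208 and 1112 in La, and 426, 439 and 494 in Lb. The group means were 865 ± 121, 618 ± 275, 1171 ± 51.6 and 453 ± 35.8 TPM in the order Ha, Hb, La, Lb (SD, n = 3 in this and every other group). La thus stood above every other library, Lb stood low and tight, and Hb overlapped both Ha and Lb.

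The levels of ssc-miR-451 were 374, 520 and 474 TPM in Ha, 1131, 380 and 383 in Hb, 1045, 805 and 870 in La, and 580, 607 and 514 in Lb. The group means were 456 ± 74.3, 632 ± 433, 906 ± 124 and 567 ± 47.9 TPM in the same order. La was again high. The highest of all 12 libraries was Hb replicate 1, Hb overlapped the 3 other groups, and the ranges of Ha and Lb met.

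The levels of ssc-miR-486 were 150.2, 155.4 and 146.2 TPM in Ha, 179.8, 58.4 and 70.3 in Hb, 110.8, 94.1 and 103.4 in La, and 145.7, 113.2 and 184.2 in Lb. The group means were 151 ± 4.59, 103 ± 66.9, 103 ± 8.36 and 148 ± 35.6 TPM. The order of the groups differed from that of the other hairpins: La, the highest in miR-144 and miR-451, was here below Ha and Lb in every library, and Hb overlapped the 3 other groups. The coefficient of variation of these 3 rows was 44.5 to 68.5% in Hb and 3.05 to 24.1% in the other groups.

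The 10 rows together summed to 1357, 1768 and 1539 TPM in Ha, 2298, 1027 and 863 in Hb, 2468, 2201 and 2201 in La, and 1220, 1239 and 1272 in Lb. This sum follows ssc-miR-144 and ssc-miR-451, which supply most of it, and says little of miR-486. In whole tissue, fewer cells of a type and less RNA per cell cannot be told apart.

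The effect of age was read within each breed (Ha vs. Hb, La vs. Lb) and that of breed at each age (Ha vs. La, Hb vs. Lb). These 4 comparisons were tested on counts with the quasi-likelihood test of edgeR. A fold change is that of the second group over the first on the log2 scale, and a call needed a log2 fold change beyond 1 in size together with p under 0.05 before adjustment. "Rose", "fell", "higher" and "lower" are used of single rows where the adjusted p-value over all rows tested was under 0.05. Beside the word "called", "higher" and "lower" give only the direction of the call. Comparisons of the same group share its libraries: Ha, Hb, La and Lb each enter 2 of the 4.

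With age in LC boars, the miR-144 and miR-451 rows fell and the miR-486 rows did not. In La vs. Lb, 4 of 10 rows were called, all lower in Lb (miR-486-x was also called, higher in Lb, with scaling by library size alone at 1.12), where 5.81% of the 1446 rows tested were called lower and 32.1% in either direction. These were ssc-miR-144, miR-144-x, miR-144-y and miR-451-y. 7 of the 10 had an adjusted p-value under 0.05 (40.2% of all rows), and the ranges of 9 did not overlap (50.3% of all rows). The median log2 fold change of the 10 was −0.83, beside 0.32 over all rows.

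ssc-miR-144 fell 2.92-fold in La vs. Lb (log2 fold change −1.55, SE 0.109, edgeR adjusted p = 1.96e-07). Its other arm, miR-144-x, went from 36.0, 26.9 and 29.7 TPM in La to 13.6, 15.7 and 13.7 in Lb, a 2.43-fold fall (−1.28, SE 0.183, edgeR adjusted p = 0.000122). Both arms of the hairpin, which are cut from 1 precursor, thus fell and did not overlap between the ages. The longer guide row miR-144-y held 12, 6 and 28 counts in La and 5, 3 and 3 in Lb (−1.97, SE 0.523, edgeR adjusted p = 0.00992), and without La replicate 3 it was still called but had an adjusted p-value of 0.0947.

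ssc-miR-451 fell less, by 0.85 on the log2 scale or 1.80-fold (SE 0.120, edgeR adjusted p = 0.000108), which is under the fold threshold. Its 25-base row miR-451-x went from 72.9, 59.0 and 76.5 TPM to 40.0, 45.0 and 49.5 TPM (−0.81, SE 0.165, edgeR adjusted p = 0.00189). The guide and its longer row thus moved by like amounts in LC boars. miR-451-y went from 7, 5 and 8 counts to 0, 1 and 1, and was at least 1.93-fold lower in Lb against the floor of 3 counts per library (edgeR adjusted p = 0.0136; 0.0618 without Lb replicate 1 and 0.0569 in DESeq2).

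The miR-486 rows behaved otherwise in the same libraries. miR-486-x went from 7.50, 5.88 and 6.27 TPM in La to 10.7, 16.8 and 14.2 TPM in Lb and rose (log2 fold change 0.91, SE 0.243, edgeR adjusted p = 0.00998; 0.0503 without La replicate 2). ssc-miR-486 had a log2 fold change of 0.34 (SE 0.163, edgeR adjusted p = 0.118), with every Lb library above every La library. Its adjusted p-value was 0.0190 with scaling by library size alone and 0.0398 without Lb replicate 2. miR-486-y (0.48, adjusted p = 0.333) and miR-486-z (−0.12) did not pass.

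With age in HZ boars, 1 of 10 rows was called, lower in Hb, where 14.4% of the 1441 rows tested were called lower and 39.6% in either direction. The adjusted p-value was under 0.05 for that 1 row (34.3% of all rows), and its groups were the only ones of the 10 that did not overlap (43.7% of all rows). The row was miR-451-x, at 39.9, 56.1 and 42.4 TPM in Ha and 31.1, 10.8 and 18.0 TPM in Hb (log2 fold change −1.18, SE 0.324, edgeR adjusted p = 0.0125). Without Ha replicate 2 the adjusted p-value was 0.0839 and the fold change −0.99, and with scaling by library size alone it was 0.0609.

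The values of the pig rows in Ha vs. Hb were −0.39 for ssc-miR-144 (SE 0.294, edgeR adjusted p = 0.323), 0.48 for ssc-miR-451 (SE 0.317, adjusted p = 0.248) and −0.53 for ssc-miR-486 (SE 0.307, adjusted p = 0.193). Hb replicate 1 lies at the top of Hb in all 3 rows. Without it ssc-miR-486 had an edgeR adjusted p-value of 0.0245. miR-144-x, at 21.5, 24.2 and 24.8 TPM in Ha and 25.9, 9.16 and 10.7 in Hb, had −0.59 (adjusted p = 0.190), and miR-486-x, at 9.77, 10.5 and 10.9 TPM and 9.97, 4.36 and 3.35 TPM, had −0.76 (adjusted p = 0.135). In both rows the libraries Hb replicate 2 and Hb replicate 3 were below every Ha library while Hb replicate 1 was not. The median over the 10 rows was −0.52, beside 0.32 over all rows.

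Between the breeds at 30 days, ssc-miR-451, miR-451-x and ssc-miR-144 were higher and ssc-miR-486 was lower in the LC than in the HZ libraries, and of these ssc-miR-451 alone also passed with all 12 libraries in 1 fit. In Ha vs. La, 3 of 10 rows were called, all higher in La, where 3.76% of the 1278 rows tested were called higher and 9.47% in either direction. These were ssc-miR-451, miR-144-y and miR-451-y. 4 of 10 rows had an adjusted p-value under 0.05 (11.3% of all rows) and 7 of 10 did not overlap (27.5% of all rows). The median log2 fold change was 0.50, beside −0.01 over all rows.

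ssc-miR-451 was 2.10-fold higher in La (log2 fold change 1.07, SE 0.138, edgeR adjusted p = 0.000153). It kept an adjusted p-value under 0.05 in all 16 alternatives, with the fold change between 0.90 and 1.17. ssc-miR-144 was higher by 0.52 (SE 0.121, edgeR adjusted p = 0.0131) and miR-451-x by 0.67 (SE 0.162, adjusted p = 0.0151), while ssc-miR-486 was lower by 0.46 (log2 fold change −0.46, SE 0.113, edgeR adjusted p = 0.0168). These 3 smaller differences were not past the threshold when all 12 libraries shared 1 fit, with edgeR adjusted p-values of 0.353, 0.199 and 0.496 in that order. Each was also lost without single libraries: ssc-miR-144 without Ha replicate 1 (0.0793) or La replicate 2 (0.0669), miR-451-x without Ha replicate 1 (0.0922), La replicate 1 (0.0597) or La replicate 3 (0.0801), and ssc-miR-486 without La replicate 2 (0.0833) or La replicate 3 (0.0820).

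The remaining rows at 30 days were 0.48 for miR-144-x (edgeR adjusted p = 0.0645), −0.58 for miR-486-x (0.0730), 1.43 for miR-144-y (0.132) and 1.96 for miR-451-y (0.134), with miR-486-y at −0.24 and miR-486-z at 0.43. miR-451-y held 2, 2 and 0 counts in Ha, so its level in La was at least 1.75-fold higher than the floor of 3 counts per library. Among the rows with more than 28 counts in a library, those of miR-144 and miR-451 had positive values and those of miR-486 negative ones.

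Between the breeds at 120 days, 0 of 10 rows were called, where 16.8% of the 1444 rows tested were. After adjustment 0 of 10 passed either, beside 3.25% of all rows. Of the 1444 rows, 50.2% of those called were higher in Lb, and 65.9% with scaling by library size alone. 3 of the 10 had an unadjusted p-value under 0.05 in edgeR and a log2 fold change under 1: ssc-miR-144 at −0.76 (SE 0.313, adjusted p = 0.173), miR-451-x at 0.96 (SE 0.299, adjusted p = 0.0881) and miR-486-x at 0.99 (SE 0.397, adjusted p = 0.165). DESeq2 also called 0 of 10 and gave miR-451-x an adjusted p-value of 0.0287. With all 12 libraries in 1 fit edgeR gave adjusted p-values of 0.0171 for miR-451-x and 0.0418 for miR-486-x, and without Hb replicate 1 it gave 0.0301 for miR-451-x. miR-486-x was called, higher in Lb, in 8 of 16 alternatives and miR-451-x in 4 of 16. The groups of miR-451-x, miR-486-x and miR-486-z did not overlap (3 of 10, with 26.5% of all rows), each with Lb above Hb. For miR-486-z this rests on 3, 1 and 1 counts in Hb and 8, 6 and 6 in Lb. ssc-miR-451 (−0.36, SE 0.307, edgeR adjusted p = 0.529) and ssc-miR-486 (0.33, SE 0.319, adjusted p = 0.582) overlapped, and Hb replicate 1 was above 2 or more of the Lb libraries in both. The median over the 10 rows was −0.13, beside 0.06 over all rows.

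**Figure D2:**
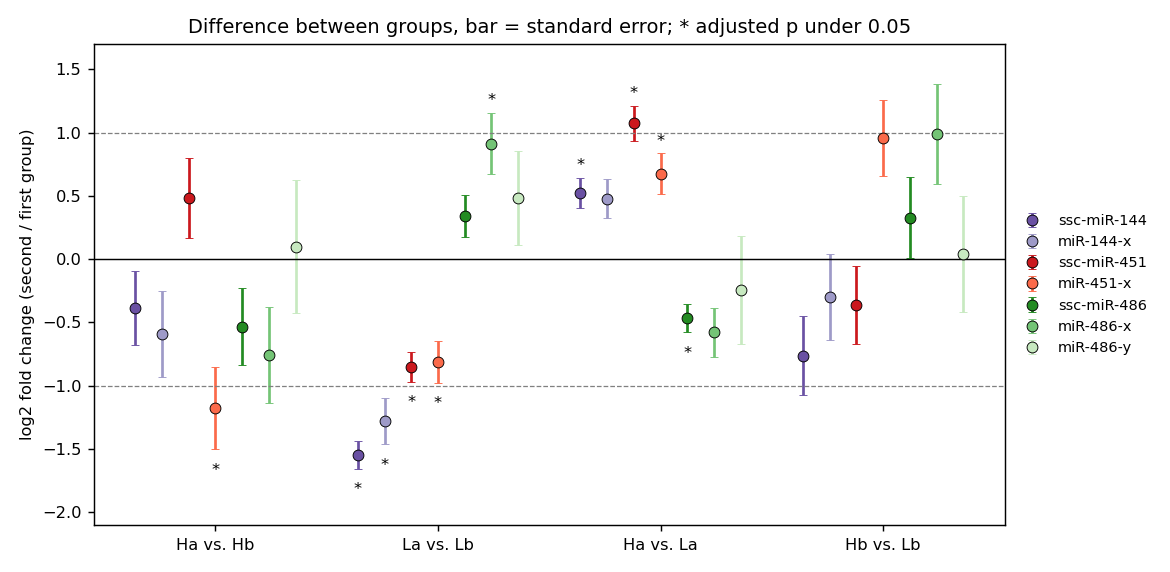
Log2 fold changes of the same 7 rows in the 4 comparisons, from edgeR on counts, with bars of 1 standard error, asterisks at an adjusted p-value under 0.05 and dashed lines at the fold threshold. In La vs. Lb ssc-miR-144 and miR-144-x lie at −1.55 and −1.28, while miR-486-x lies above 0 at 0.91.

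Whether age acted differently in the breeds was tested as an interaction over all 12 libraries, (Lb − La) minus (Hb − Ha). None of the 10 passed after adjustment (20 of 1452 rows did, 1.38%), and 5 of 10 passed before adjustment, beside 21.1% of all rows. ssc-miR-451 had −1.39 (SE 0.363, edgeR adjusted p = 0.0552), ssc-miR-144 had −1.22 (SE 0.326, adjusted p = 0.0577) and miR-486-x had 1.61 (SE 0.436, adjusted p = 0.0577). DESeq2 put these 3 past the threshold, with adjusted p-values of 0.00666, 0.0120 and 0.0124, in a fit in which 121 of 1452 rows passed. The others were ssc-miR-486 at 0.82 (edgeR adjusted p = 0.193) and miR-144-y at −2.62 (adjusted p = 0.160). The values of ssc-miR-144 and ssc-miR-451 were thus negative and those of ssc-miR-486 and miR-486-x positive, none past the threshold in edgeR with TMM over all rows. With RLE scaling ssc-miR-451 passed (edgeR adjusted p = 0.0434), and with filterByExpr ssc-miR-451 (0.0452), ssc-miR-144 (0.0460) and miR-486-x (0.0460) did.

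These 5 values moved with the Hb library left out. Without Hb replicate 1 the edgeR adjusted p-values were 0.0226 for ssc-miR-451, 0.0367 for ssc-miR-144, 0.00716 for miR-486-x and 0.00955 for ssc-miR-486, in a fit in which 168 of 1452 rows passed instead of 20. Without Hb replicate 3 they were 0.0112 for ssc-miR-144 and 0.0278 for ssc-miR-451, where 12 of 1452 rows passed. miR-144-y went from −2.62 to −1.22 without Hb replicate 2. The signs of ssc-miR-144, ssc-miR-451, ssc-miR-486 and miR-486-x held in all 18 alternatives. For miR-451-x the age effects of the breeds differed by 0.31 (adjusted p = 0.678).

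Ratios of 2 miRNAs within a library do not depend on how libraries are scaled to each other, so the same shifts were read as log2 ratios of counts with 0.5 added. With 3 libraries against 3, an exact two-sided permutation test cannot go below p = 0.10, so no ratio can pass 0.05, and whether the libraries overlap is given beside it. The ratio of ssc-miR-451 to ssc-miR-144 had means of −0.93 ± 0.0987, −0.08 ± 0.442, −0.38 ± 0.199 and 0.32 ± 0.230 in the order Ha, Hb, La, Lb. It was 1.80-fold higher in Hb than in Ha and 1.62-fold higher in Lb than in La, without overlap in either breed (exact permutation p = 0.10 in both). Between the breeds it was 0.55 higher in La than in Ha, again without overlap, and 0.40 higher in Lb than in Hb with overlap (exact permutation p = 0.20). The ages thus did not overlap in either breed in this ratio of the 2 guides cut from 1 primary transcript, as many single rows did not.

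ssc-miR-486 relative to ssc-miR-451 had a mean log2 ratio of −1.59 ± 0.233, −2.60 ± 0.136, −3.13 ± 0.0892 and −1.97 ± 0.472 in that order of groups. The direction of the age difference was opposite in the breeds: −1.01 in HZ boars and 1.17, or 2.25-fold, in LC boars. At 30 days La was 2.93-fold lower than Ha, and at 120 days Lb was above Hb by 0.63. The libraries did not overlap in any of these 4 comparisons (exact permutation p = 0.10 in each). Hb replicate 1, which had the highest levels in Hb of ssc-miR-451 and ssc-miR-486, lies with the other Hb libraries in this ratio, as the small SD of Hb shows.

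ssc-miR-486 relative to ssc-miR-144 was 3.65-fold higher in Lb than in La (1.87 on the log2 scale) and lower in La than in Ha by 0.998 on the log2 scale (−0.998). It was 1.03 higher in Lb than in Hb, and these 3 differences were without overlap (exact permutation p = 0.10 in each). Ha and Hb overlapped (−0.16, exact permutation p = 0.80). The mean ratio of the miR-144 arms was between −5.40 and −4.98 in the 4 groups (log2 of miR-144-x over ssc-miR-144), the differences were between −0.21 and 0.42, and the groups overlapped in all 4 comparisons (exact permutation p = 0.20 to 0.70).

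**Figure D3:**
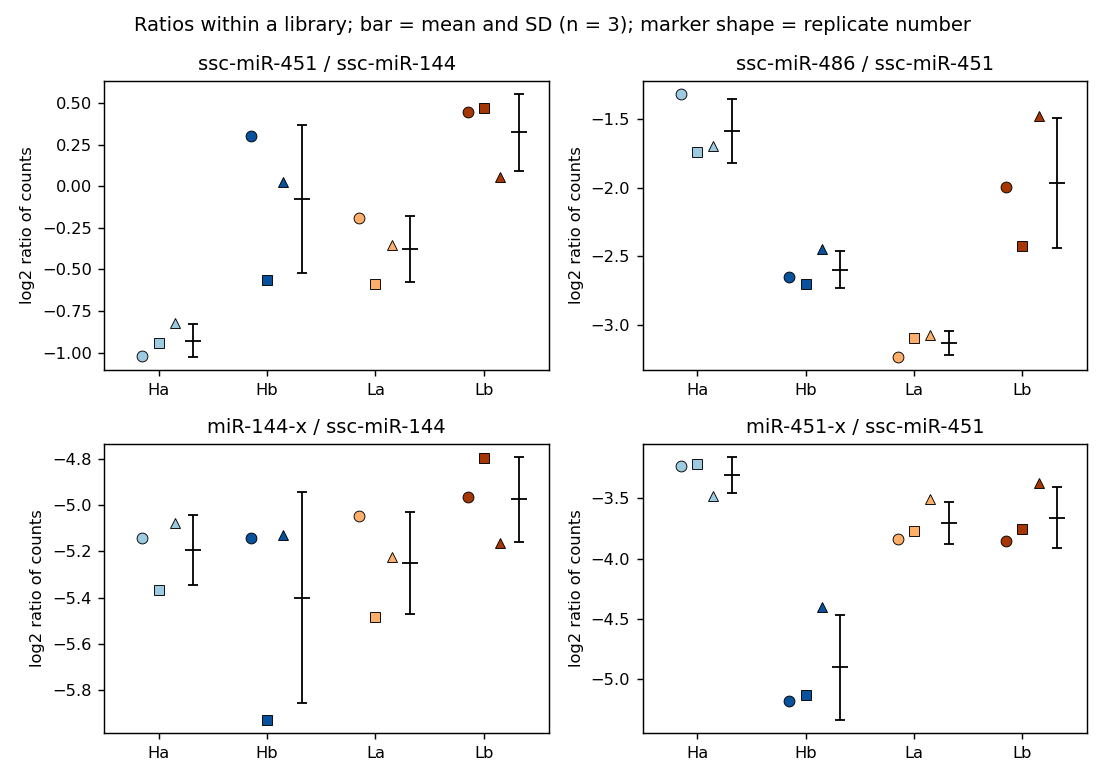
Log2 ratios of counts within each library, 1 panel per ratio, with 1 point per library and the group mean with its SD (n = 3). The ratio of ssc-miR-486 to ssc-miR-451 is lower in Hb than in Ha and higher in Lb than in La, while the arms of miR-144 keep group means between −5.40 and −4.98.

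The share of the miR-451 guide that was counted on the 25-base row was then read in each library, a ratio chosen after its values were seen. miR-451-x made up 9.64, 9.74 and 8.22% of the 2 guide rows in Ha, 2.68, 2.76 and 4.49% in Hb, 6.53, 6.83 and 8.08% in La, and 6.45, 6.90 and 8.78% in Lb. All Hb libraries lay below all others, and the log2 ratio of miR-451-x to ssc-miR-451 was 3.03-fold lower in Hb than in Ha and 2.37-fold higher in Lb than in Hb (exact permutation p = 0.10 in both). In LC boars the ages overlapped (0.04, exact permutation p = 0.80). In Ha vs. Hb, where miR-451-x fell, ssc-miR-451 had a log2 fold change of 0.48 (edgeR adjusted p = 0.248). Since the rows differ in 3 bases at the 3′ end, how the authors assigned tags by length enters this share, and its part in the result was not tested.

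For miR-486 the same ratio of miR-486-x to ssc-miR-486 had means of −3.85, −4.09, −3.97 and −3.40 in the order Ha, Hb, La, Lb. La and Lb did not overlap (0.57, exact permutation p = 0.10), with Lb replicate 2 at a share of 12.9% beside 6.86 and 7.18% in the others. Ha and Hb overlapped (−0.23, exact permutation p = 0.40).

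Whether the 3 pig rows rise and fall together across libraries was described within each age, since age and breed differences would enter a pooled value. At 30 days, over 6 libraries, ssc-miR-144 and ssc-miR-451 had r = 0.94 (exact permutation p = 0.00694, adjusted over 6 correlations 0.0417) and rho = 0.829 (exact permutation p = 0.0583, adjusted 0.308), and r = 0.857 without Ha replicates 1 and 3. ssc-miR-486 had r = −0.83 with ssc-miR-144 (exact permutation p = 0.0639, adjusted 0.137; rho −0.771, exact p = 0.103) and r = −0.85 with ssc-miR-451 (exact permutation p = 0.0917, adjusted 0.137; rho −0.6, exact p = 0.242). The libraries of Ha and La do not overlap in any of the 3 rows, so these values at 30 days restate the breed difference. Taken as deviations from the group means they were 0.70, 0.158 and 0.647 (exact permutation p = 0.25, 0.611 and 0.167).

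At 120 days, over 6 libraries, r was 0.75 for ssc-miR-144 and ssc-miR-451 (exact permutation p = 0.114, adjusted 0.137), 0.38 for ssc-miR-144 and ssc-miR-486 (exact permutation p = 0.501) and 0.75 for ssc-miR-451 and ssc-miR-486 (exact permutation p = 0.0736, adjusted 0.137). The values of rho were 0.257, 0.257 and 0.6. Without Hb replicates 1 and 3, the libraries furthest from the median of ssc-miR-144, the first of these r became −0.965 and the second −0.638, so both rest on those libraries. The third was 0.666 without Hb replicates 1 and 2. On log2(CPM + 1) after TMM, the scaling of the tests, the 3 values of r were 0.674, 0.0400 and 0.457.

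Over all 12 libraries, deviations from the group means had r = 0.83 for ssc-miR-144 and ssc-miR-451, 0.75 for ssc-miR-144 and ssc-miR-486, and 0.83 for ssc-miR-451 and ssc-miR-486. Without Hb replicate 1 they were 0.25, −0.03 and −0.12 over 11 libraries, and without Hb they were 0.42, 0.38 and −0.13 over 9. The values over 12 libraries thus depended on Hb replicate 1.

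**Figure D4:**
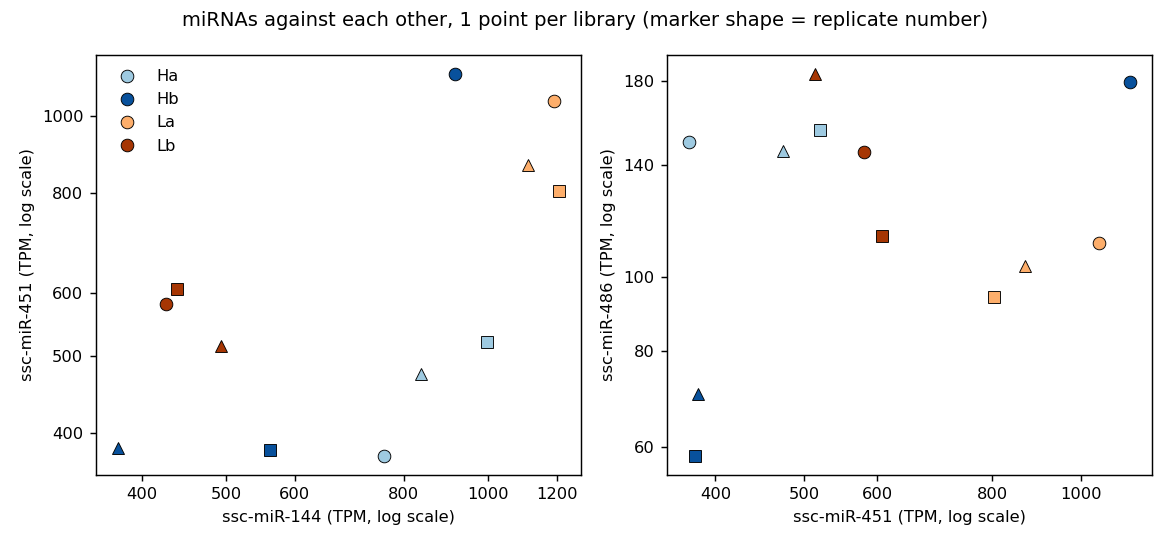
ssc-miR-451 against ssc-miR-144, and ssc-miR-486 against ssc-miR-451, in TPM on log axes, 1 point per library, coloured by group. La lies highest in ssc-miR-144, and Hb replicate 1 lies apart from Hb replicates 2 and 3 in both panels.

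The rows most like each pig row were ranked by Pearson's r of log2(TPM + 1) over the 12 libraries, among 436 rows with a mean of at least 10 TPM. These r are descriptions, and the points share libraries and TPM denominators. For ssc-miR-144 its own other arm miR-144-x came first (r = 0.90), followed by ssc-miR-191 (0.88), ssc-miR-708-3p (0.85) and miR-214-y (0.82). ssc-miR-451, from the same primary transcript, was at rank 53 (r = 0.60) and ssc-miR-486 at rank 205 (r = 0.17).

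For ssc-miR-451 the most alike rows were ssc-miR-335 (r = 0.79), ssc-miR-1271-5p (0.76) and ssc-miR-28-5p (0.76). miR-144-x stood at rank 9 (r = 0.71), ssc-miR-144 at rank 25 and miR-451-x, which differs by 3 bases at the 3′ end, at rank 31 (r = 0.58). For ssc-miR-486 they were ssc-let-7d-5p (r = 0.89), ssc-let-7d-3p (0.87) and ssc-miR-2320-5p (0.86), while ssc-miR-451 was at rank 253 and ssc-miR-144 at rank 274. These ranks take in the differences between the groups. As deviations from the group means ssc-miR-451 had r = 0.83 with ssc-miR-144, against 0.65 to 0.76 with its 3 most alike rows, and that value depended on Hb replicate 1 as given above. ssc-miR-144 had 0.75, 0.32 and −0.07 with ssc-miR-191, ssc-miR-708-3p and miR-214-y, against 0.75 with ssc-miR-486. ssc-miR-486 had 0.90, 0.85 and 0.85 with ssc-let-7d-5p, ssc-let-7d-3p and ssc-miR-2320-5p, above its 0.83 with ssc-miR-451 and 0.75 with ssc-miR-144.

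Rows of other miRNAs that red cells hold were read beside these, from a list of miR-16, miR-25, miR-92a, miR-185 and miR-363, with 15 rows (miR-4732, also listed, has no row in the table). Their summed level was 13274 to 16628 TPM in Ha and 5906 to 11430 TPM in Hb, against 15698 to 18136 TPM in La and 10536 to 12230 TPM in Lb. Hb replicate 1 was the highest of Hb, at 11430 TPM. In this list 5 of 15 rows were called lower and 1 higher in Hb than in Ha, 2 lower and 0 higher in Lb than in La, 2 higher and 0 lower in La than in Ha, and 1 higher and 1 lower in Lb than in Hb. Of all rows, 14.4% were called lower in Hb than in Ha, 5.81% lower in Lb than in La, 3.76% higher in La than in Ha and 16.8% in either direction between Hb and Lb. The median log2 fold changes of the list were −0.30, −0.31, 0.22 and 0.32 in that order, beside 0.32, 0.32, −0.01 and 0.06 over all rows.

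Its most abundant row, ssc-miR-92a, a member of a cluster tied to proliferation and found in many cell types, had means of 8041, 3446, 9766 and 4631 TPM in the order Ha, Hb, La, Lb. It fell with age in both breeds (−1.16, edgeR adjusted p = 0.00348 in HZ boars and −1.26, adjusted p = 4.56e-07 in LC boars). In LC boars it thus fell in the same libraries as ssc-miR-144 and ssc-miR-451. miR-25-y also fell in La vs. Lb (−0.83, edgeR adjusted p = 1.48e-05), whereas ssc-miR-16 rose (0.32, adjusted p = 0.0438) by as much as the median of all rows.

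Markers of other blood cells, muscle and vessels were read in the same way, and their part in the results was not tested. 13 rows of leukocyte miRNAs (miR-142, miR-146a, miR-150, miR-155 and miR-223) summed to 1387 to 1560 TPM in Ha and 971 to 1468 TPM in Hb, against 1622 to 1804 TPM in La and 1097 to 1715 TPM in Lb. Of these, 3 were called lower and 1 higher in Hb than in Ha, 1 was called lower in Lb than in Hb, and none in the other comparisons, beside the shares of all rows just given and 25.1% called higher in Hb than in Ha. The list's median in Ha vs. Hb was −0.84, beside 0.32 over all rows. ssc-miR-142-5p, a miRNA of white blood cells, was higher in La than in Ha (0.54, edgeR adjusted p = 0.00294) and fell in La vs. Lb (−0.67, adjusted p = 0.00603). The next most abundant row of the list, ssc-miR-146a-5p, a miRNA induced in inflammation, had −0.22 in Ha vs. La (edgeR adjusted p = 0.415) and 0.36 in La vs. Lb (0.155), and was called higher in Hb than in Ha (1.01, adjusted p = 0.0387). ssc-miR-150, a miRNA of lymphocytes, fell in La vs. Lb (−0.63, edgeR adjusted p = 0.0121) and was called lower in Hb than in Ha (−1.02, adjusted p = 0.0112).

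The striated muscle list (miR-1, miR-133a, miR-133b, miR-206, miR-208b and miR-499) bears on miR-486, which muscle also makes. Its 14 rows summed to 221 to 378 TPM in Ha and 498.7 to 834 TPM in Hb, against 226 to 323 TPM in La and 834 to 938 TPM in Lb, with 7 of 14 called higher and 0 lower with age in LC boars and 6 higher and 0 lower in HZ boars, beside 26.3% and 25.1% of all rows called higher. In Ha vs. La 0 of 13 were called, and in Hb vs. Lb 1 was called higher and 1 lower, beside 9.47% and 16.8% of all rows called in either direction. miR-208b, of the heart and slow muscle, was at 0 counts in at least 1 library, and the other families of the list were counted in every library. ssc-miR-1, a miRNA of heart and skeletal muscle that smooth muscle also holds, rose from a mean of 101 to 512 TPM in LC boars (2.15, edgeR adjusted p = 8.74e-06) and from 137 to 418 TPM in HZ boars (1.74, adjusted p = 0.00168). ssc-miR-133a-3p rose in LC boars from a mean of 30.6 to 173 TPM (2.30, edgeR adjusted p = 3.55e-06) and had means of 44.0 and 57.8 TPM in HZ boars. ssc-miR-499-5p, the second most abundant row of the list and a miRNA of heart and slow muscle, had −0.08 in La vs. Lb (edgeR adjusted p = 0.699), with means of 107 and 115 TPM.

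Smooth muscle of vessels and of the tubule wall was read from miR-143 and miR-145, whose 9 rows summed to 22030 to 36347 TPM in Ha and 58183 to 92499.6 TPM in Hb, against 20687 to 26749 TPM in La and 55596 to 65214 TPM in Lb. Of these 9 rows 5 were called higher with age in HZ boars and 8 in LC boars, beside 25.1% and 26.3% of all rows. Between the breeds 1 was called lower in La than in Ha and 2 in Lb than in Hb, beside 9.47% and 16.8% of all rows called in either direction. The 4 rows of endothelial miR-126 summed to 12672 to 15839, 11458 to 12313, 11712 to 13364 and 8701 to 11242 TPM in Ha, Hb, La and Lb. Of these rows 1 was called, lower in Lb than in Hb, where 16.8% of all rows were called in either direction. In La vs. Lb the median of the 4 was −0.46, beside 0.32 over all rows, and ssc-miR-126-3p (−0.68, edgeR adjusted p = 0.00224), ssc-miR-126-5p (−0.36, 0.0227) and miR-126-y (−0.55, 0.0185) fell in the same libraries as ssc-miR-144 and ssc-miR-451. The liver miRNA miR-122, which also circulates in plasma, had 2 rows that summed to 8.998 to 51.8 TPM over all libraries. Of these, 1 of 2 was called higher with age in each breed, beside 25.1% of all rows in HZ boars and 26.3% in LC boars.

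**Figure D5:**
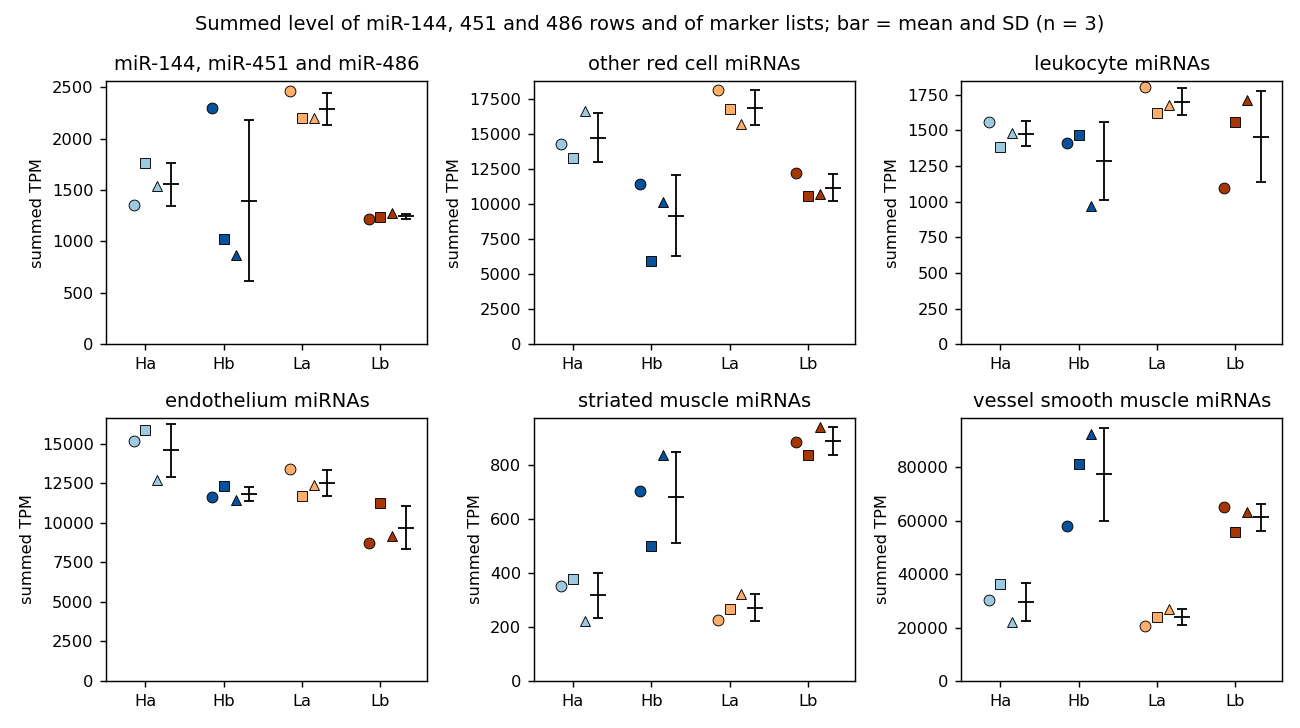
Summed TPM in every library of the 10 rows of miR-144, miR-451 and miR-486 and of 5 marker lists, 1 panel each, with the group mean and SD (n = 3). The other red cell list runs from 15698 to 18136 TPM in La, where its range meets that of Ha, and the striated muscle list is higher at 120 days than at 30 days in both breeds.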

How the data were processed

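The authors trimmed reads with fastp (0.18.0 in the submitters' processing notes), removed tags of other non-coding RNAs and of exons, introns and repeats of Sscrofa11.1, and matched the rest to miRBase 22.1. They deposited, per library, the unscaled count of tags on every listed miRNA and its TPM, with 0.01 standing for no tag. The deposited table also gives each miRNA's sequence. TPM was used for levels and counts for tests.

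Counts were fitted with edgeR 4.0.16 (R 4.3.3, glmQLFit and glmQLFTest, TMM factors of 0.694 to 1.195) for each comparison over rows with at least 1 count, with Benjamini-Hochberg adjustment over all rows tested. The interaction used all 12 libraries. Counts per library set the precision: the floor was 3 counts. The test was also run on simulated counts with the same dispersion in every row. That setting does not represent the spread between the Hb libraries, so nothing here rests on it. Ratios used exact permutation tests (scipy 1.17.1). All 10 rows are reported, and the 3 most alike rows and the 3 most abundant rows of each list were the candidates for naming. The alternatives were RLE and library size scaling, the DESeq2 1.42.0 Wald test, robust estimation, the exact test of edgeR, filterByExpr, 1 fit of all 12 libraries, merged sequences, the replicate block, mean TPM and each library left out. The ratios of the longer rows and the correlations of deviations without Hb were added after seeing the data. The members and marker lists were chosen with earlier results of these data known. Positions came from RefSeq names. RT-qPCR, target genes and hairpin sequences were not used here.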

Additional observations from a re-analysis of the deposited data

How the results depend on the processing

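The falls of ssc-miR-144 and miR-144-x in La vs. Lb were called in all 16 alternatives, at −1.62 to −1.34 and −1.45 to −1.07. Scaling by library size alone moved the median of all rows by 0.22 in La vs. Lb and 0.27 in Hb vs. Lb. The cause of the changes below was not tested, apart from filterByExpr, which left out 3 of the 10 low rows in each comparison and 2 in the interaction. Of the 10 rows, the number called in La vs. Lb was 4, and 2 with filterByExpr, 5 with library size or mean TPM and 5 without Lb replicate 1 (each adding miR-486-x, higher in Lb), and 5 without Lb replicate 2 (adding ssc-miR-451, lower in Lb). In Ha vs. La it was 3, and 2 with library size or mean TPM, 1 with DESeq2, filterByExpr or all 12 libraries in 1 fit, and 1 to 3 with a library left out. In Ha vs. Hb it was 1, and 0 to 1 with a library left out (0 without Ha replicate 2). In Hb vs. Lb it was 0, and 2 with library size, 1 with the replicate block, 1 with all 12 libraries in 1 fit, 1 with merged sequences, 2 with mean TPM and 0 to 2 with a library left out. In the interaction it was 0, and 1 with RLE, 3 with DESeq2, 3 with filterByExpr and 0 to 4 with a library left out, while the rows passing over the whole table were 20 of 1452, and 36 with RLE, 121 with DESeq2, 63 of 869 with filterByExpr and 168 without Hb replicate 1. Same-numbered libraries did not deviate together (r of −0.215 to 0.183 over 775 rows), so the numbers were taken as names only, and the replicate block changed no other count of called rows.

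ssc-miR-451 in Ha vs. La was 0.98 with library size and 0.99 with mean TPM, and 0.90 to 1.17 with a library left out, and in La vs. Lb it was −1.004 to −0.75. In the interaction, ssc-miR-451 was −1.47 with RLE and with DESeq2, −1.43 with filterByExpr and −1.63 to −0.97 with a library left out, ssc-miR-144 was −1.32 with DESeq2, −1.28 with filterByExpr and −1.48 to −0.97, and ssc-miR-486 was 0.62 to 1.21.

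The rows that changed sign were low in counts. miR-486-z in La vs. Lb was 0.10 with library size, 0.0912 with mean TPM and −0.46 to 0.30 with a library left out. miR-486-y in Hb vs. Lb was −0.015 with filterByExpr and −0.20 to 0.16 with a library left out. With a library left out, miR-486-y was −0.13 to 0.70 in Ha vs. Hb, −0.51 to 0.32 in Ha vs. La and −0.27 to 0.57 in the interaction. miR-144-y was −0.69 to 1.22 in Ha vs. Hb and −1.81 to 0.17 in Hb vs. Lb. miR-451-y was −3.32 to 0.0035 in Ha vs. Hb, −1.15 to 2.43 in Hb vs. Lb and −3.12 to 0.54 in the interaction, and miR-486-z there was −0.11 to 1.29.

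Of the ratios, that of ssc-miR-486 to ssc-miR-144 in Ha vs. Hb was −0.33 to 0.13 with a library left out, the arms of miR-144 −0.34 to 0.0581 in Ha vs. Hb and −0.16 to 0.0580 in Ha vs. La, and miR-451-x to ssc-miR-451 in La vs. Lb −0.10 to 0.14. Of the correlations at 30 days, ssc-miR-144 with ssc-miR-451 was 0.70 as deviations and 0.894 to 0.967 with a library left out, ssc-miR-144 with ssc-miR-486 was 0.158 and −0.954 to −0.777, and ssc-miR-451 with ssc-miR-486 was 0.647 as deviations. At 120 days they were −0.153 to 0.933, −0.0815 to 0.658 and 0.667 to 0.914 with a library left out.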
